A study of Mus musculus with 8 samples.

Results

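The 8 genes described here encode small leucine rich proteoglycans (SLRPs) and were picked by gene name from the count table: Ogn (osteoglycin), Omd (osteomodulin), Aspn (asporin), Dcn (decorin), Lum (lumican), Bgn (biglycan), Fmod (fibromodulin) and Prelp. The family was chosen by the NRRA vs Veh contrast, in which Ogn stood far above its vehicle level, so that contrast is a description of the choice and not a test of it. The table lists 55421 genes, 20477 of them passed the filter on low counts, and all 8 proteoglycan genes were among these. Omd was low everywhere and passed the filter through its NR and NRRA libraries.

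Primary spermatogonial stem cell (SSC) cultures were derived from 6-day-old pups that were F1 hybrids (C57BL/6 X DBA/2). They grew on irradiated mouse embryonic fibroblasts (MEFs) prepared from CF1 mice. The Veh cultures received vehicle in complete SSC medium, and the RA cultures received 100 nM retinoic acid (RA) in the same medium. Nutrient restriction (NR) left 10% of the complete medium in 90% Earle's balanced salt solution (EBSS), and NRRA combined that medium with 100 nM RA. Each of the 4 conditions lasted 2 days and has 2 RNA-seq libraries, and each library holds 19261333 to 30023585 counts. The question is how the proteoglycan genes answered to RA and to NR, each alone and on top of the other. The fibroblast layer was present in all 4 conditions, so RNA of feeder cells can be part of every library.

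SLRPs are secreted proteins with a curved leucine-rich repeat core that bind fibrillar collagens and set how collagen fibrils assemble. Several of them also hold growth factors of the TGF-β family in the matrix, and many carry glycosaminoglycan chains of the dermatan, chondroitin or keratan sulfate type. They are mainly products of fibroblasts and other connective tissue cells, in the testis as elsewhere, and germ cells are not known as a main source.

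The family sits in short gene clusters, which is why positions are given here (GRCm38, GENCODE M21). Aspn (chr13:49544443-49567565), Omd (chr13:49582462-49592822) and Ogn (chr13:49608046-49624501) follow each other on the plus strand within 80.1 kb, and all 3 lie inside Cenpp, a centromere protein gene read from the minus strand. Dcn (chr10:97479609-97518143, plus strand) ends 47.0 kb before Lum (chr10:97565128-97572703, plus strand). Prelp (chr1:133910304-133921414, minus strand) ends 116.0 kb before Fmod (chr1:134037254-134048277, plus strand), and Bgn (chrX:73483602-73495933, plus strand) stands alone. The exons of Ogn, Omd, Dcn, Lum, Bgn and Fmod overlap no exon of another gene, 7 exon bases (0.297%) of Aspn overlap Cenpp, and 350 exon bases (9.68%) of Prelp overlap the antisense gene Gm15851. The sources used here do not state whether reads were counted by strand, so reads in those shared stretches cannot be told apart.

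Aspn and Ogn, with Omd between them, were both higher with NR and differed in sign with RA, and the 250 bases before each start site are therefore shown side by side (RefSeq, GRCm38.p6, read along the gene's plus strand). They are chr13:49607765-49608014 for Ogn, chr13:49544193-49544442 for Aspn and chr13:49582212-49582461 for Omd. Capitals mark matches to a searched motif on either strand.
Ogn: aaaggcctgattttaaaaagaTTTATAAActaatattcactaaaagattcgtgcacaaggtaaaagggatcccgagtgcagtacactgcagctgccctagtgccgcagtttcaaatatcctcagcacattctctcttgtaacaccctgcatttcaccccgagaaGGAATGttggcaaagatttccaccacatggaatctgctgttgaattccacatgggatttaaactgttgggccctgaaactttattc
Aspn: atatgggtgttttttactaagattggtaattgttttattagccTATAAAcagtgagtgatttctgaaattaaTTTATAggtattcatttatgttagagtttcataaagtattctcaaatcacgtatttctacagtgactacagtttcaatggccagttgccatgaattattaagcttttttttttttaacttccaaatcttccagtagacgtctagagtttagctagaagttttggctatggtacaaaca
Omd: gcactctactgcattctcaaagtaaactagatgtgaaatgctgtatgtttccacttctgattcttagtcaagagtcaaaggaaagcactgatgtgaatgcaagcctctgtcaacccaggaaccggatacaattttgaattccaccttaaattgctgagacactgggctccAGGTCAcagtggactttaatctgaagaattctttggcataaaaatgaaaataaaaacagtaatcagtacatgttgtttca

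The motifs searched on both strands, with the share of 32851 RefSeq promoter windows of the same length that hold each, were the nuclear receptor half-sites AGGTCA (14.0%) and AGTTCA (11.8%), a direct repeat of these half-sites (0.137%), the TATA box TATAAA (12.4%), the E-box CACGTG (6.02%), the FoxO motif GTAAACA (3.17%), the Atf4 and Cebp motif TGATGNAA (3.45%) and the TEAD motif GGAATG (12.6%). In the Ogn window TATAAA occurred on both strands in 1 overlapping stretch, 229 and 227 bases before the start, and GGAATG occurred at 86 bases. Aspn held TATAAA at 207 bases and, on the other strand, at 178 bases, whereas Omd held the half-site AGGTCA at 80 bases. Of the other members, Fmod had AGTTCA at 249 bases, Prelp and Bgn had no match in this window, and Dcn and Lum were not matched to a promoter entry. A match is a run of letters and not a shown binding site.

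Markers of the cells that the cultures could hold were read first. All 6 germ cell markers and all 8 markers of undifferentiated spermatogonia reached 1 CPM (a gene's count scaled to a common library size) in at least 1 library, as did all 14 fibroblast markers. The summed level of the fibroblast markers was 19530 to 19590 CPM for Veh, 15900 to 17060 after RA, 29650 to 31030 under NR, and 24070 to 24900 for NRRA, while that of the germ cell markers ranged from 789.4 to 1108 CPM over all libraries. The 8 markers of undifferentiated spermatogonia summed to 817.8 to 901.5 CPM in Veh and 802.9 to 835.4 in NR, against 315.1 to 321.3 with RA and 155.6 to 157.6 with both. Of 7 Sertoli cell markers, 5 (Gata4, Amhr2, Fshr, Amh and Cldn11) stayed under 1 CPM in every library, as did 5 of 6 Leydig cell markers (Cyp17a1, Lhcgr, Hsd3b1, Cyp11a1 and Insl3). The other Sertoli markers, Sox9 and Wt1, averaged 31.9 and 4.56 CPM for Veh, 14.7 and 8.96 after RA, 36.1 and 6.75 under NR, and 7.14 and 4.50 for NRRA. The other Leydig marker, Star, averaged 7.03, 12.9, 5.48 and 6.07 CPM in the same order. The 5 peritubular myoid and smooth muscle markers summed to 167 to 172.6 CPM for Veh, 136.4 to 141.1 after RA, 672.8 to 688 under NR, and 1085 to 1095 for NRRA. Over all libraries the summed level was 202.9 to 288.1 CPM for 5 macrophage markers, 6.26 to 12.73 for 4 endothelial markers and 49.74 to 72.94 for 8 markers of bone, cartilage and tendon. Most of the last sum was Col2a1 and Runx2 (37.87 and 21.05 CPM in Veh, 36.53 and 18.36 in NR). Its smaller markers did not move alike. Tnmd averaged 1.85 CPM in Veh and 7.83 in NR, Scx 2.78 and 2.23, and Acan 5.64 and 3.73. Sp7, Ibsp and Bglap averaged under 1 CPM in every condition. In these bulk libraries fewer cells of a type and less RNA per cell cannot be told apart, and the part of the feeder cells or of any other cell type in the results below was not tested.

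Of the 6 members other than Ogn and Omd, NR raised 3 (Aspn, Prelp and Fmod) and lowered none, and RA lowered 1 (Prelp) and raised none. A gene was called at a fold change of 2 or more with an adjusted p under 0.05 (edgeR's quasi-likelihood test with Benjamini-Hochberg adjustment over all 20477 genes). In NR vs Veh, 5.33% of all genes were called higher and 2.96% lower, and the median log2 fold change was 1.01 over the 6 members and 0.01 over all genes. In RA vs Veh, 4.74% of all genes were called higher and 2.75% lower, and the medians were -0.42 and -0.02. Ogn is given by its values without a p throughout, because its Veh and NRRA libraries are those on which it was chosen. Omd is given without a p where NR or NRRA is compared with Veh or RA, because it passed the filter through NR and NRRA. The same holds where its RA response is compared between the media. RA vs Veh and NR vs Veh share the Veh libraries.

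With RA present, NR raised Aspn and Prelp of these 6 members (NRRA vs RA, background 4.61% higher and 3.68% lower, median over the 6 members 0.61 against 0.02 for all genes). Under NR, RA lowered Aspn, Prelp and Fmod and raised none (NRRA vs NR, background 4.56% higher and 4.14% lower, median -0.97 against 0.01). In NRRA vs Veh, the contrast behind the choice, Ogn, Aspn, Omd and Prelp passed the call rule beside 9.91% of all genes higher and 6.02% lower, from which nothing is read.

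**Figure D1:**
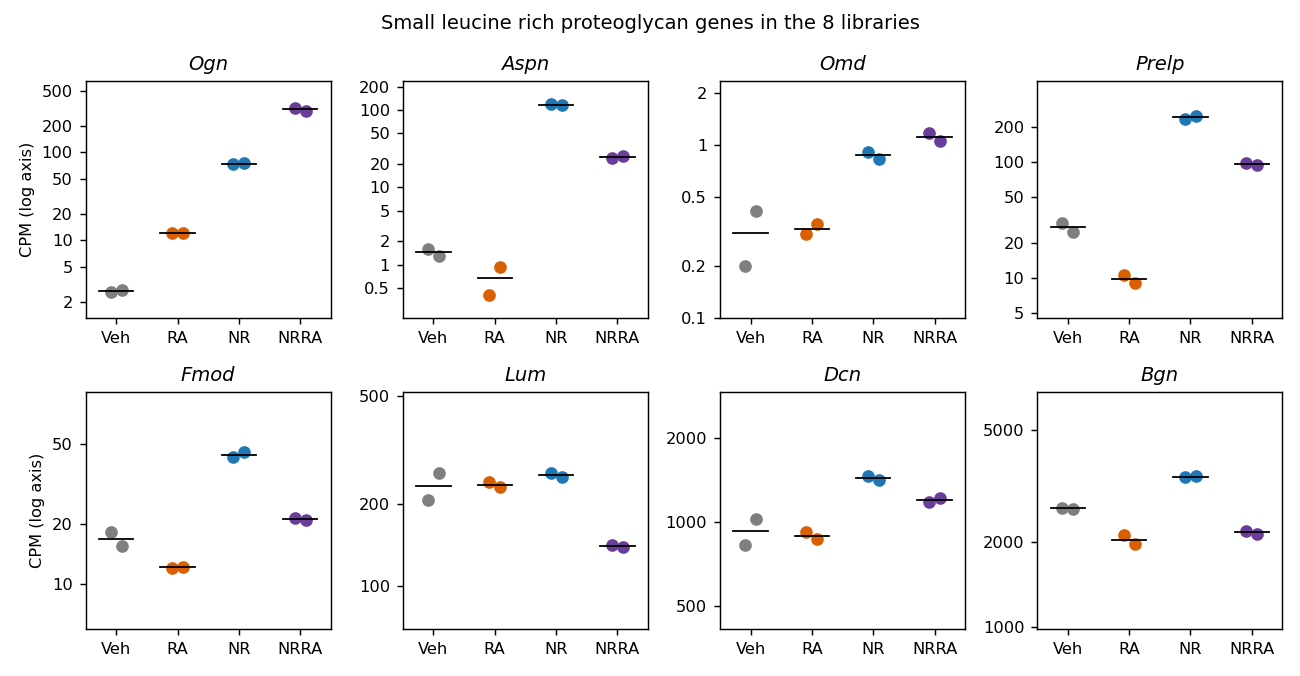
Level of each proteoglycan gene in the 8 libraries, in CPM on a log axis whose range differs between panels, with 1 point per library and a line at the mean of the 2 libraries of a condition. Ogn climbs from 2.69 CPM in Veh to 307.5 in NRRA, while Aspn, Prelp and Fmod are highest in NR.

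Ogn, a class III SLRP whose product is also known as mimecan, had few reads in the Veh libraries and stood above that level with RA, with NR and with both. Its counts were 53 and 53 for Veh, 236 and 351 after RA, 1506 and 1987 under NR, and 8967 and 9177 for NRRA. Scaled to library size these were 2.63 and 2.76 CPM for Veh, 12.0 and 12.2 after RA, 72.6 and 75.4 under NR, and 320.4 and 294.6 for NRRA. The 4 conditions did not overlap, with Veh lowest, then RA, NR and NRRA.

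Given without a test, Ogn stood 4.49-fold higher in RA than in Veh (log2 fold change 2.17, SE 0.131) and 27.5-fold higher in NR than in Veh (4.78, SE 0.0966). It stood 4.15-fold higher in NRRA than in NR (log2 2.05, SE 0.0508), 25.4-fold higher than in RA (4.67, SE 0.0643) and 114-fold higher than in Veh (6.83, SE 0.0846). The log2 step that came with RA was thus 2.17 in complete medium and 2.05 under NR. Their difference was -0.11 (SE 0.153), which is a description as well. The summed myoid and smooth muscle markers were highest in NRRA and lowest in RA. Most of that sum was Acta2 (80.05 CPM in Veh and 878.3 in NRRA) and Tagln (79.21 and 196.6). The low markers of this list did not move alike. Cnn1 averaged 2.16 CPM in Veh, 3.95 in NR and 5.75 in NRRA. Myh11 held 1.96, 3.81 and 3.43 CPM in the same order, and Des 6.39, 3.71 and 5.90. A link between these markers and Ogn was not tested.

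Aspn, a class I SLRP that binds collagen and TGF-β and carries an aspartate-rich stretch, showed the largest NR response of the family. Its counts were 32 and 25 for Veh, 8 and 27 after RA, 2442 and 3046 under NR, and 661 and 781 for NRRA. In CPM this was 1.58 and 1.30 for Veh, 0.408 and 0.936 after RA, 118 and 116 under NR, and 23.6 and 25.1 for NRRA. NR libraries were far above all others, NRRA libraries came next, and the RA pair was spread widely on few reads.

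NR raised Aspn 80.3-fold (log2 fold change 6.33, SE 0.113, edgeR adjusted p = 1.93e-24), rank 2 among the log2 fold changes of all 20477 genes in that comparison. In the presence of RA the NR step was 33.5-fold (5.07, SE 0.153, edgeR adjusted p = 7.50e-20). RA lowered Aspn 4.79-fold under NR (log2 -2.26, SE 0.0648, edgeR adjusted p = 5.18e-20). In complete medium the value was -0.9995 on the log2 scale (SE 0.311, edgeR adjusted p = 0.0109), which fell just short of the fold minimum and passed it in 8 of 13 alternatives. Leaving out RA replicate 2 gave -1.81, and leaving out RA replicate 1 gave -0.63. Aspn and Ogn, within 80.1 kb of each other, were thus both at higher levels with NR than in Veh, while RA under NR lowered Aspn and went with a higher level of Ogn.

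Omd, a class II member known from mineralizing bone matrix, had few reads. Its counts were 4 and 8 for Veh, 6 and 10 after RA, 19 and 22 under NR, and 33 and 33 for NRRA. The Veh and RA libraries overlapped at 0.198 to 0.417 CPM, the NR libraries held 0.835 and 0.915 CPM, and the NRRA libraries 1.06 and 1.18 CPM. Omd was 2.83-fold higher in NR than in Veh (log2 1.4995, SE 0.455) and 3.35-fold higher in NRRA than in RA (1.74, SE 0.39). The first value ranged from 1.07 without Veh replicate 1 to 2.12 without Veh replicate 2. RA gave 0.11 in complete medium (95% interval -1.03 to 1.25, edgeR adjusted p = 0.892) and 0.36 under NR (-0.30 to 1.01, edgeR adjusted p = 0.394), so that neither direction can be read at this depth.

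The genes around the cluster were read in the same way. Cenpp, which encloses all 3 members on the other strand, averaged 5.64 CPM for Veh, 6.14 after RA, 21.8 under NR, and 9.39 for NRRA. It rose with NR (log2 fold change 1.95, SE 0.11, edgeR adjusted p = 6.08e-14), fell by 1.21 on the log2 scale from NR to NRRA (edgeR adjusted p = 3.13e-11), and its RA response differed between the media by -1.32 (SE 0.165, edgeR adjusted p = 1.80e-06). Ecm2, a leucine-rich matrix gene upstream of Aspn, averaged 0.611 CPM in Veh and 1.42 in NR and rose with NR by 1.21 on the log2 scale (SE 0.338, edgeR adjusted p = 0.00459). Nol8, downstream of Ogn, gave 0.39 (SE 0.0644), under the fold minimum.

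**Figure D2:**
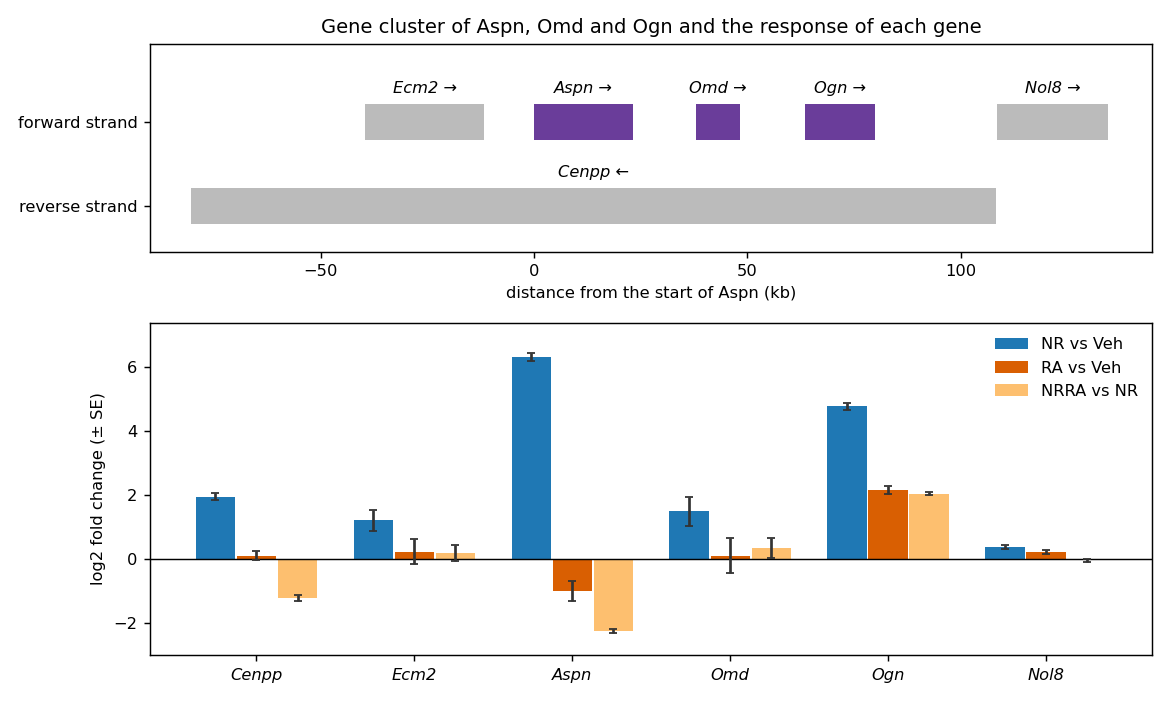
Upper panel, the genes around Aspn, Omd and Ogn by strand, with distance from the Aspn start in kb and members in purple. Lower panel, log2 fold change (bars, with SE) of each gene for NR vs Veh, RA vs Veh and NRRA vs NR; NR bars point upward for all 6 genes, while the RA bars point upward for Ogn and downward for Aspn.

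Prelp, a class II protein that binds heparan sulfate and collagen near basement membranes, followed the pattern of Aspn at a higher level. Its libraries held 29.87 and 25.01 CPM for Veh, 10.7 and 9.05 after RA, 235 and 250 under NR, and 98.1 and 95.4 for NRRA, with no overlap between conditions. NR raised it 8.83-fold (log2 3.14, SE 0.067, edgeR adjusted p = 5.77e-23) and, on top of RA, 9.94-fold (3.31, SE 0.0793, edgeR adjusted p = 5.00e-22). RA lowered it 2.82-fold in complete medium (log2 -1.497, SE 0.095, edgeR adjusted p = 1.28e-12) and 2.51-fold under NR (-1.33, SE 0.0559, edgeR adjusted p = 1.80e-16). The RA response differed between the media by 0.17 (95% interval -0.06 to 0.40, edgeR adjusted p = 0.367). The antisense gene Gm15851 averaged 4.41 CPM for Veh, 1.74 after RA, 40.4 under NR, and 16.5 for NRRA, and gave 3.20 for NR and -1.38 for RA on the log2 scale. Since 9.68% of the exon bases of Prelp are shared with it, how much of either gene's count belongs to the other cannot be told apart.

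Fmod, a class II protein that guides collagen fibril growth in tendon, was also highest in NR and lowest in RA. It held 18.1 and 15.5 CPM for Veh, 12.0 and 12.3 after RA, 43.0 and 45.3 under NR, and 21.5 and 20.9 for NRRA. NR raised it 2.62-fold (log2 1.39, SE 0.078, edgeR adjusted p = 5.14e-14), and RA lowered it 2.09-fold under NR (-1.06, SE 0.0705, edgeR adjusted p = 1.99e-12). In complete medium the RA value was -0.47 (SE 0.0938, edgeR adjusted p = 0.000205), under the fold minimum. On top of RA, NR gave 0.80 (SE 0.0851, edgeR adjusted p = 1.62e-08), also under it. The RA step of Fmod was larger under NR by -0.59 on the log2 scale (SE 0.118, edgeR adjusted p = 0.000851).

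The abundant members Bgn, Dcn and Lum stayed within a fold of 2 in each pairwise comparison. Bgn, a class I proteoglycan that also acts as a ligand of Toll-like receptors, held 2639 and 2629 CPM for Veh, 2113 and 1962 after RA, 3397 and 3426 under NR, and 2191 and 2141 for NRRA. It was 1.30-fold higher with NR (log2 0.37, SE 0.0352, edgeR adjusted p = 1.78e-09), 1.29-fold lower with RA (-0.37, edgeR adjusted p = 3.12e-09) and 1.58-fold lower with RA under NR (-0.66, edgeR adjusted p = 2.87e-14). These differences were larger than the spread between replicates and smaller than the fold minimum.

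Dcn, the class I proteoglycan best known for binding collagen I and TGF-β, held 828 and 1024 CPM for Veh, 916 and 867 after RA, 1457 and 1413 under NR, and 1181 and 1213 for NRRA. The Veh and RA libraries overlapped, and both restricted conditions lay above them. The log2 value was 0.63 for NR alone (SE 0.0566, edgeR adjusted p = 6.93e-10), 0.43 for NR on top of RA (edgeR adjusted p = 6.74e-07), -0.26 for RA under NR (edgeR adjusted p = 0.000409) and -0.06 for RA alone (edgeR adjusted p = 0.464). The last value was 0.12 without Veh replicate 2.

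Lum, a keratan sulfate proteoglycan of the cornea and of connective tissue, was the member that was lowest in NRRA. It held 208 and 260 CPM for Veh, 241 and 231 after RA, 260 and 251 under NR, and 141 and 138 for NRRA. The Veh libraries spanned the levels of both the RA and the NR libraries, and all NRRA values lay below. The comparisons with Veh gave log2 values of 0.01 for RA (95% interval -0.12 to 0.14, edgeR adjusted p = 0.89) and 0.13 for NR (0.00 to 0.26, edgeR adjusted p = 0.102). In NRRA it was 1.83-fold lower than in NR (log2 -0.87, SE 0.0628, edgeR adjusted p = 1.12e-11) and 1.69-fold lower than in RA (-0.75, SE 0.0629, edgeR adjusted p = 1.55e-10). Its RA response differed between the media by -0.88 (SE 0.0884, edgeR adjusted p = 4.86e-08), under the fold minimum, which it passed without Veh replicate 2 (-1.08).

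**Figure D3:**
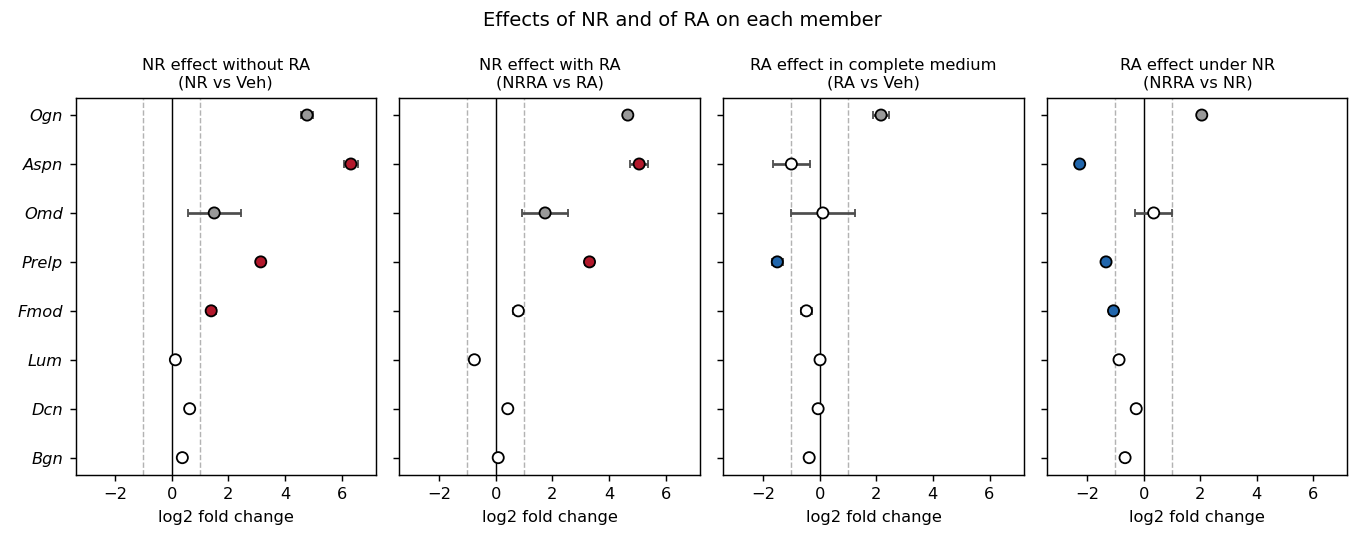
Log2 fold change of each member with its 95% interval in 4 comparisons, NR vs Veh, NRRA vs RA, RA vs Veh and NRRA vs NR, with dashed lines at a fold of 2. Red and blue points passed the call rule upward and downward, open points did not, and grey points are given without a test, Ogn because its Veh and NRRA libraries chose it and Omd because it passed the filter through NR and NRRA.

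The question whether RA acted differently in the 2 media was put to the interaction term, which called 0.786% of all genes positive and 1.46% negative. Of the 6 members other than Ogn and Omd, Aspn alone was called, at -1.26 (SE 0.34, edgeR adjusted p = 0.0129). This call rests on the RA libraries, whose Aspn counts were 8 and 27, and without RA replicate 2 the value was -0.44 (edgeR adjusted p = 0.736). Lum (-0.88), Fmod (-0.59) and Bgn (-0.28, edgeR adjusted p = 0.000199) had adjusted p-values under 0.05 with a difference under the minimum. Dcn gave -0.21 (95% interval -0.37 to -0.04, edgeR adjusted p = 0.0919). Given without a test, Omd had 0.24 (SE 0.651). The median over the 6 members other than Ogn and Omd was -0.44 and that of all genes 0.02.

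Levels were compared between members as CPM per kb of exon, since the exon length ranges from 2249 bases in Omd to 6099 in Bgn. In Veh the order was Bgn (431.9 CPM per kb), Dcn (158.6), Lum (95.6), Prelp (7.59), Fmod (5.09), Ogn (1.05), Aspn (0.613) and Omd (0.137). In RA, Ogn moved above Fmod and Prelp to rank 4 with 4.72 CPM per kb. Under NR, Prelp (67.1), Aspn (49.6) and Ogn (28.8) came directly after Lum (104.4). In NRRA, Ogn passed Lum, with 119.8 CPM per kb against 57.1, and stood behind Bgn (355.1) and Dcn (205). Neighbours in these orders did not overlap between their 2 libraries in any condition.

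As shares of the 8 genes' summed CPM per kb, Ogn made up 0.150% ± 0.00236 (SD, n = 2) for Veh, 0.794% ± 0.0419 after RA, 2.70% ± 0.0768 under NR, and 15.3% ± 0.71 for NRRA. Bgn went from 61.7% ± 3.36 in Veh to 45.5% ± 0.146 in NRRA, and Aspn and Prelp had their largest shares in NR, with 4.64% ± 0.0521 and 6.28% ± 0.275. The summed level was 701 ± 36.2 CPM per kb for Veh, 595 ± 26.4 after RA, 1069 ± 0.946 under NR, and 781 ± 10.1 for NRRA.

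**Figure D4:**
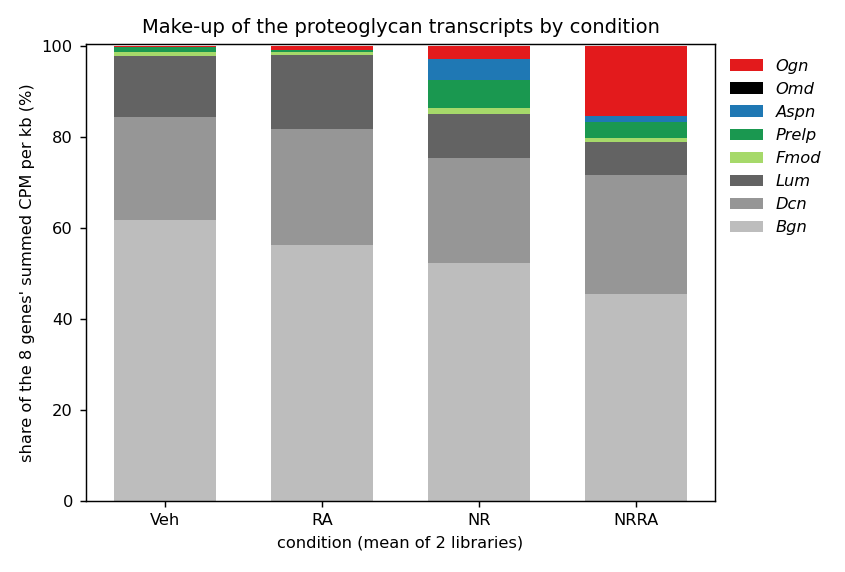
Share of each gene in the summed CPM per kb of the 8 proteoglycan genes, as stacked bars for the mean of the 2 libraries of each condition. Bgn, Dcn and Lum (greys) fill nearly the whole bar in Veh and RA, Aspn and Prelp widen in NR, and Ogn (red) reaches 15.3% in NRRA.

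Because the summed fibroblast markers moved with NR, each member was also set against that sum in the same library. Most of it came from Fn1, Col1a1, Col1a2 and Col3a1. They averaged 9126, 3742, 2141 and 1396 CPM in Veh and 10080, 7869, 5148 and 4057 CPM in NR. That sum differed from Veh by -0.25 in RA, 0.63 in NR and 0.32 in NRRA on the log2 scale. On this scale the NR difference from Veh was 5.71 for Aspn, 4.15 for Ogn, 2.52 for Prelp, 0.97 for Omd and 0.76 for Fmod. The abundant members had 0.01 (Dcn), -0.26 (Bgn) and -0.50 (Lum). Dcn thus stood level with this sum, at 47.4 per 1000 CPM of markers in Veh and 47.3 in NR. The RA difference from Veh was 2.42 for Ogn and -1.23 for Prelp, and the RA difference under NR was 2.36 for Ogn, -1.95 for Aspn and -1.02 for Prelp. The directions of Ogn, Aspn and Prelp were therefore the same on both scales, Fmod and Omd lost the fold of 2 for NR, and for NR Bgn turned from 0.37 to -0.26 and Lum from 0.13 to -0.50. The fibroblast markers did not move as 1 block: in NR vs Veh, 5 of 14 rose (Postn, Col3a1, Col1a2, Pdgfra and Col1a1) and Twist2 fell. Of all genes, 5.33% were called higher and 2.96% lower. Under the fold minimum in NR, Vim (-0.89), S100a4 (-0.87) and Thy1 (-0.31) were lower, and Fn1, Pdgfrb, Twist1, Prrx1 and Fap were higher. In RA vs Veh, Fap rose (3.01) and no marker was called lower, beside 4.74% and 2.75% of all genes. In NRRA vs Veh, 4 of 14 were called higher (Fap, 4.17, Postn, Col3a1 and Col1a1) and 2 lower (S100a4, -2.32, and Vim, -1.37). Of all genes, 9.91% were higher and 6.02% lower in that contrast.

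**Figure D5:**
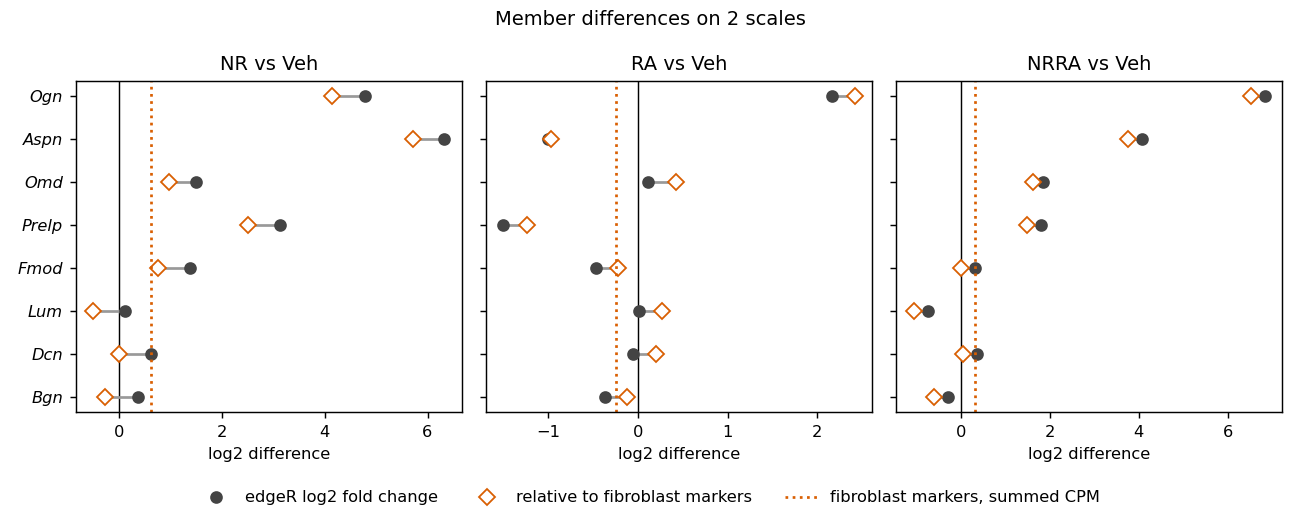
Log2 difference of each member from Veh in NR, RA and NRRA, as edgeR log2 fold change (filled circles) and relative to the summed fibroblast markers of the same libraries (open diamonds). The dotted line marks the summed markers themselves, at 0.63, -0.25 and 0.32; in the NR panel Dcn falls on 0.01 once set against them, while Aspn stays at 5.71 and Ogn at 4.15.

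The partners of the proteoglycans were counted from lists. Of 14 fibrillar and associated collagens, which SLRPs bind, NR raised 7 (5.33% of all genes were called higher) and lowered none. NR on top of RA raised 9 (4.61% of all genes), and the median log2 fold changes were 1.03 and 1.27. Of these collagens, Col1a1, Col1a2 and Col3a1, are also in the fibroblast marker list. Col11a1, a nucleator of fibrils, rose from 29.9 ± 2.76 to 246 ± 9.81 CPM with NR (log2 3.04, edgeR adjusted p = 1.96e-23), Col14a1 from 6.596 ± 1.06 to 25.9 ± 1.67 (1.98, edgeR adjusted p = 4.90e-14), and Col3a1 from 1396 ± 8.38 to 4057 ± 220 (1.54, edgeR adjusted p = 4.77e-21). RA raised none of the 14 and lowered 2, Col2a1 (-1.16) and Col6a3 (-1.67), with a median of -0.34. Of all genes, RA raised 4.74% and lowered 2.75%.

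Of 11 proteases known to cut SLRPs or their relatives, NR raised Adamts5 from 16.5 ± 1.81 to 252.5 ± 8.58 CPM (log2 3.94, edgeR adjusted p = 4.84e-25) and Adamts1 from 27.99 ± 1.47 to 188 ± 5.47 (2.75, edgeR adjusted p = 9.97e-23). It lowered Mmp3, a stromelysin, from 2379 ± 123 to 676 ± 16.7 CPM (-1.81, edgeR adjusted p = 9.64e-22) and the tolloid gene Tll2 (-1.52). RA lowered Mmp3 (-1.17) and Tll1 (-1.16) in complete medium and Mmp3 (-1.26) and Adamts1 (-1.02) under NR. Of all genes, NR raised 5.33% and lowered 2.96%, and RA lowered 2.75% in complete medium and 4.14% under NR.

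The enzymes that build glycosaminoglycan chains were called in shares near those of all genes (5.33% higher and 2.96% lower for NR, 4.74% and 2.75% for RA). Of 27 tested, NR raised 1 (Dsel, 1.04) and lowered none, and RA raised B3gnt7 (2.98) and lowered Chst5 (-1.85), with medians of -0.11 and -0.16. Chst13 also passed the call rule for RA (2.28). It averaged 0.305 CPM in Veh and 0.172 in NR against 1.47 in RA and 1.27 in NRRA. It thus passed the filter on low counts through its libraries with RA, and its value is given without a test. B3gnt7 and Chst5 both act on keratan sulfate, a chain type of some class II members. B4galt4 (-0.11), Chst1 (-0.42) and Chst2 (-0.53) of the same list were not called in RA vs Veh. B3gnt7 held 6.87 ± 0.867 CPM in Veh and 54.1 ± 2.89 in RA, and Chst5 4.62 ± 0.0942 and 1.29 ± 0.0544. Under NR, RA again raised B3gnt7 (2.07) and lowered Chst5 (-3.31). Chst1 (NRRA vs RA, -1.37) and Csgalnact1 (NRRA vs NR, -1.37) were lower where both treatments met.

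Among 18 tested growth factors and receptors that SLRPs bind, NR raised 5 (Tgfb2, Tgfb3, Bmp4, Ccn2 and Egfr) and lowered Bmp2. The shares of all genes for NR were 5.33% higher and 2.96% lower. RA in complete medium moved none of the 18 past the call rule. Tgfb2 held 9.98 ± 0.252 CPM for Veh, 11.2 ± 0.884 after RA, 35.1 ± 0.391 under NR, and 103.3 ± 2.9 for NRRA, and its RA response differed between the media by 1.40. Bmp4 went from 6.99 ± 0.0712 to 23.9 ± 1.21 CPM with NR (log2 1.78) and Bmp2 from 16.3 ± 0.098 to 5.57 ± 0.634 (-1.56). P2rx7, a receptor bound by biglycan, was not called for either treatment alone (-0.61 for RA, -0.80 for NR). In NRRA vs Veh, the contrast by which it was named, it passed the call rule (-1.60, 10.68 CPM in Veh and 3.52 in NRRA). Of 8 tested relatives of the family, NR raised Podn (2.04), Optc (1.79) and Ecm2 (1.21), beside 5.33% of all genes. RA moved none of these relatives past the call rule in either medium. Of 23 other matrix proteoglycans tested, NR raised 2 (Vcan, 1.54, and Gpc6, 1.62) and lowered Gpc1 (-1.28), shares near those of all genes. RA raised Ncan (1.33) and lowered Sdc4 (-1.48) and Cspg4 (-1.001), beside 4.74% and 2.75% of all genes. Esm1 also passed the call rule for RA (3.23). It averaged 0.353 CPM in Veh, 0.153 in NR and 0.166 in NRRA against 3.36 in RA. It thus passed the filter on low counts mainly through its RA libraries, and its value is given without a test. Cd44 was lower by 1.64 on the log2 scale in NRRA than in RA.

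The genes whose centred log2 CPM lay nearest to that of Ogn over the 8 libraries were Dio3, Prlr, Ccl20, Rgs4 and Cavin2, out of 14799 candidates with a mean of at least 50 counts. The root mean square difference was 0.59 for Dio3 (thyroid hormone deiodinase), 0.618 for Prlr (prolactin receptor), 0.679 for Ccl20 (a chemokine), 0.907 for Rgs4 (a regulator of G-protein signalling) and 0.912 for Cavin2 (a coat protein of caveolae). Dio3 averaged 0.278 CPM for Veh, 2.86 after RA, 18.6 under NR, and 31.8 for NRRA, and Cavin2 averaged 11.2, 21.5, 117.5 and 209.5 CPM in the same order. Within the family the nearest were Omd (1.88, Pearson r 0.926), Prelp (1.90, r 0.674) and Aspn (1.99, r 0.754), and the farthest was Lum (2.81, r -0.636). The 5 genes were picked as the nearest of all candidates, so the larger differences of the members follow largely from the pick. The libraries of a condition share their treatment, and the likeness is a description over 8 points.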

How the data were processed

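RNA was sequenced from cultured mouse SSCs in 4 conditions with 2 libraries each. Per the submitters' processing notes the authors used bcl2fastq, STAR 2.6.1c, featureCounts 1.6.4 and the mm10 build. They deposited raw counts, the whole number of reads assigned to each gene, without normalization. The annotation, the strand setting and the treatment of multiply mapped reads are not given in the sources used here. The 8 columns of counts were matched to libraries by their labels, and 0 columns had no sample. The study describes the replicates as independent, the labels do not, so p-values measure the spread between these samples. Replicates differed by more than sampling noise in every condition (chi-square per gene 1.58 to 3.93).

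Counts were filtered with filterByExpr (minimum count 10) and scaled by TMM in edgeR 4.0.16 (R 4.3.3), and all 8 libraries entered 1 quasi-likelihood fit with a term for each condition (4 residual degrees of freedom). The SE is the absolute log2 fold change divided by the square root of F, and 95% intervals use the matching t distribution. CPM uses TMM-scaled totals, and 1 CPM is about 19.3 to 30.0 reads. DESeq2 1.42.0, its size factors, no filter on low counts, no minimum fold, a replicate block, fits of only the 2 groups compared and leaving out each library were the alternatives. In counts simulated for NRRA vs Veh with 19925 genes, edgeR recovered 71 of 99 genes changed 2-fold and 93 of 95 changed 4-fold, with 6 false calls. These were scored at an adjusted p under 0.05 without the fold minimum, so they are not the recovery of the call rule used above.

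The members, the gene lists and the tests were chosen with earlier results of these data known. From each other list the rule names at most 4 genes called in any comparison with the largest absolute log2 fold change in NRRA vs Veh and a mean of at least 50 counts. Other list genes were named after their values were seen, where 5 or fewer passed. Of 20 growth factor and receptor symbols 18 were in the table. Gene positions and exon lengths come from GENCODE M21 by Ensembl identifier, which matched all 8 members, and promoters from RefSeq, which matched 6 of 8. Figures used Python 3.11.15 and matplotlib 3.10.9.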

Additional observations from a re-analysis of the deposited data

Results flagged for a closer look

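The RA response of Aspn differed between the media, with -1.26 on the log2 scale (RA effect under NR minus RA effect in complete medium, SE 0.34, edgeR adjusted p = 0.0129). Aspn averaged 1.44 CPM in Veh and 0.672 in RA, against 117 in NR and 24.4 in NRRA, so that both RA values pointed downward and the one under NR was larger. The RA libraries held 8 and 27 counts of Aspn, and over the fits that left out 1 library the value ranged from -1.63 to -0.44.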

How the results depend on the processing

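Of the members' values under the alternatives, 596 kept direction and side of the threshold, 9 crossed it upward, 3 downward and 7 changed sign; the cause was not tested. Counting all 8 members and without a minimum fold, those called numbered 5 in RA vs Veh, 7 in NRRA vs NR, 8 in NRRA vs RA, 8 in NRRA vs Veh and 4 in the interaction. At that setting 19.8% of all genes were higher and 23.4% lower in RA vs Veh, 21.3% and 22.1% in NRRA vs NR. The shares were 20.9% and 19.4% in NRRA vs RA, 30.1% and 28.7% in NRRA vs Veh, and 6.37% and 6.58% in the interaction. Ogn and Omd are among the 8, and nothing is read from these counts. Leaving out 1 library gave 0 to 2 called members in the interaction, 0 without RA replicate 2 and 2 (Aspn and Lum) without Veh replicate 2. Sign changes came only with a library left out: the RA vs Veh range was -0.31 to 0.74 for Omd, -0.18 to 0.12 for Dcn and -0.12 to 0.20 for Lum (-0.02 without RA replicate 1), the NR vs Veh range was -0.0086 to 0.31 for Lum, and the interaction range was -0.40 to 0.65 for Omd and -0.0025 to 0.28 for Prelp. Aspn in RA vs Veh passed the call rule in 8 of 13 alternatives: DESeq2, its size factors, no filter on low counts, the replicate block, and without Veh replicate 2, RA replicate 2 or either NRRA library. The genes called in the interaction numbered 459 with edgeR and 281 with DESeq2. Same-numbered libraries did not deviate together (r from -0.0334 to 0.0225), so the numbers are not taken as pairs; with a replicate block 3 members were called in RA vs Veh (Aspn at -1.0024 in addition), and 1518 genes in place of 1534. Omd in NR vs Veh, given without a test, ranged from 1.07 to 2.12 on the log2 scale and was 1.51 with DESeq2. No setting moved the median of all genes by over 0.1. A single library left in a condition was assumed to vary like the others. Depth limits Omd and, in Veh and RA, Aspn, with 4 to 32 counts per library.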
